A study of Mus musculus with 8 samples.

Results

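In newborn mouse epidermis, 7767 narrow peaks of H3K4me3 stood alone. They were chosen on measured values, namely a width below 1500 bp and no overlap, by 1 bp or more, with any peak of H3K27ac, MOF or Rfx2, on chromosomes 1 to 19. They made up 28.7% of the 27039 peaks in the H3K4me3 list and 35.7% of the 21770 peaks on these chromosomes that were narrower than 1500 bp. The other 14003 narrow peaks served for comparison. Of these, 5250 overlapped MOF, and 8753 overlapped H3K27ac or Rfx2 but not MOF. Width and overlap chose the regions, so width, fold enrichment and the distance to other lists are given below as a description with no test.

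All libraries were made from wild-type mice at postnatal day 0.5. The material was total epidermis from back skin, freed of dermis and dispersed into single cells. MOF, the acetyltransferase of lysine 16 on histone H4, was mapped by ChIPseq, and the histone marks and the transcription factor Rfx2 by Cut&Run, in which a nuclease tethered to an antibody cuts out the bound fragments. Of 8 libraries for 6 antibodies, 4 lists were used, 1 for each of H3K4me3, H3K27ac, MOF and Rfx2. No value therefore has a replicate error, and the 95% intervals cover counting error over peaks or genes of these libraries only. The tissue label was checked at marker genes. H3K4me3 lay at 6 of 8 keratinocyte markers, but Krt1 and Krt10 of the differentiated layers had no peak. It was also at 3 of 6 melanocyte, 4 of 7 fibroblast, 1 of 4 endothelial and 0 of 5 immune markers, and at 56.8% of all genes. H3K27ac lay at 3 of 8 keratinocyte, 3 of 6 melanocyte, 1 of 7 fibroblast, 0 of 4 endothelial and 0 of 5 immune markers. Over all genes its share was 46.9%. Some start sites of other cell types thus carried H3K4me3 as well, and such small counts do not by themselves bear out the tissue label. In bulk tissue a mark in few cells and a weak mark in many cannot be told apart.

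H3K4me3, the trimethyl mark on lysine 4 of histone H3, is laid down by SET1 and MLL complexes around transcription start sites (TSSs). CXXC proteins direct these complexes to unmethylated CpG islands, the stretches of mammalian promoters that kept their CG dinucleotides. H3K27ac is written by p300 and CBP at promoters and enhancers in use. A CpG island may therefore carry H3K4me3 at a gene that the cell transcribes little, and lineage genes of other tissues are the textbook case. The polycomb mark that often accompanies H3K4me3 at such genes was not measured in these lists.

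The sequences of some of these peaks show how mixed they were. The first pair are 200 bases around the summit at the developmental regulator Dlx5 (chr6:6881663-6881862, minus strand) and the calcium channel gene Cacna1b (chr2:24763189-24763388, minus strand). Each was the highest peak of its gene list, and capitals mark CG dinucleotides. Beside them is the zinc finger gene Zfp931 (chr2:178078190-178078389, minus strand), with the same marking and also the highest of its list. The build is GRCm38.p6, which is mm10, and letters run 5′ to 3′ on the strand of the gene.
Dlx5: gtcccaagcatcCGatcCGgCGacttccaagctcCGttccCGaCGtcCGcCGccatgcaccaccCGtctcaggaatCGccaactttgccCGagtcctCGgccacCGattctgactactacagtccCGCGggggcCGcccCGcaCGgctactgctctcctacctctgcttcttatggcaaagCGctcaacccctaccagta
Cacna1b: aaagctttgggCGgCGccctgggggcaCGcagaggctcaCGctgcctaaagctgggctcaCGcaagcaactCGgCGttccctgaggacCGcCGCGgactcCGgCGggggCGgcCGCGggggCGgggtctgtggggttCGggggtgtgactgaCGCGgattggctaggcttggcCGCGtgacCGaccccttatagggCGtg
Zfp931: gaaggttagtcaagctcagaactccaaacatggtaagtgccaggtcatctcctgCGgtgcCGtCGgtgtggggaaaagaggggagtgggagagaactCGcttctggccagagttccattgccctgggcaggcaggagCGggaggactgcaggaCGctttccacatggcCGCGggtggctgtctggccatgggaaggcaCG

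These windows held 19, 23 and 9 CG dinucleotides. The 31-base word at the summit occurred once in the assembly at Dlx5 and Cacna1b but 20 times at Zfp931. Away from start sites, the peak ranked 3 by height was of another kind. It was intergenic, with Nbea as the nearest start site (chr3:56575461-56575660, plus strand), and capitals mark the word CCAGGTCCT. This word matches the repeat unit of mouse pericentromeric satellite as far as general knowledge goes.
Nbea: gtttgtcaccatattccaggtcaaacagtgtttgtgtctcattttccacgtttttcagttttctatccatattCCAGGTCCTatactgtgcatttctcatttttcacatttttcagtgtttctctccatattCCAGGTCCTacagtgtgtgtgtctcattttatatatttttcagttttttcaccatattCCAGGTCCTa

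Position was the first measure that the selection had not used. The centre of 2756 of the 7767 peaks (35.5%, 34.4 to 36.6%) lay within 1 kb of a TSS, against 7178 of the 14003 other narrow peaks (51.3%, 50.4 to 52.1%). Moved by 50 kb to either side, 4.06% of the lone peaks would have done so. The difference was -15.8 percentage points (Newcombe interval -17.1 to -14.4). It was -10.3 points (-11.7 to -8.77) against narrow peaks with H3K27ac or Rfx2 and -25 points (-26.7 to -23.3) against those with MOF. Lone peaks were thus found less often at start sites than other narrow peaks taken as a whole.

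Width altered this comparison. Peaks that stood alone made up 63.3% of the narrow peaks under 250 bp but 7.77% of those of 1200 bp or more, and the narrowest peaks lay least often at a TSS. Among peaks under 250 bp, 18.4% of the lone peaks and 10.9% of the others were within 1 kb of a TSS, a difference of 7.46 points (4.85 to 9.95). Between 400 and 600 bp the shares were 39.3% and 25.2%, and the difference was 14.1 points (11.1 to 17.1). From 900 bp the order turned. Between 900 and 1200 bp the difference was -8.32 points (-12.4 to -4.43), and between 1200 and 1500 bp, with 70.8% and 87%, it was -16.2 points (-22.2 to -10.8). With a width limit of 1000 bp in place of 1500 bp the difference over all classes was -0.541 points, with an interval of -2 to 0.919. At a given width below 900 bp, a lone peak was more often at a start site than a shared one. Sorted by fold enrichment instead, the difference was -6.6 points (-10.2 to -2.95) under 4, was not detectable between 4 and 8, and was -20.7 points (-24.3 to -17.1) between 8 and 10. From 10 upward the shares were 50.7% and 77%, a difference of -26.4 points (-30.1 to -22.7).

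**Figure D1:**
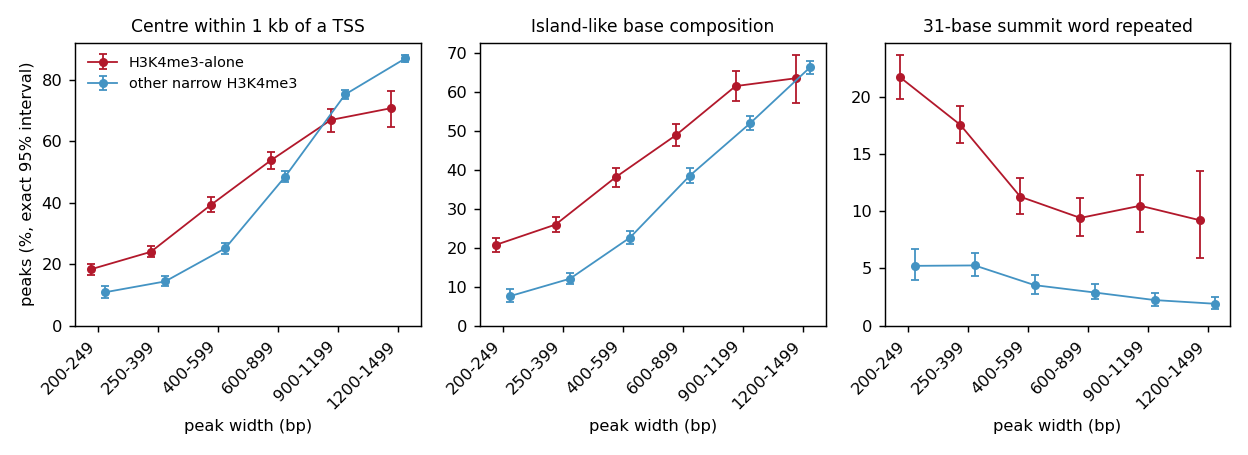
Share of narrow H3K4me3 peaks (y axis, percent) in 6 classes of peak width (x axis, bp) that lay within 1 kb of a TSS, had the base composition of a CpG island or held a 31-base summit word found more than once in the assembly. Points are lone (red) and other narrow peaks (blue) with exact 95% intervals, and the red points lie above the blue ones in each class for the repeated word but below them from 900 bp for the TSS.

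The other lone peaks were mostly intergenic or intronic. By centre, 2690 were intergenic (34.6%), 1896 intronic (24.4%), 287 in coding exons (3.7%) and 138 in other exons (1.78%). Among peaks away from a TSS, the intergenic share exceeded that of the other narrow peaks by 3.29 points (1.47 to 5.11) and the share in coding exons by 2.23 points (1.46 to 3.02), while the intronic share differed by -6.27 points (-8.05 to -4.48). When predicted RefSeq transcripts were counted too, the TSS share rose to 42.3%. Of the 2756 peaks at a TSS, 2477 were nearest to a protein-coding gene (89.9%), 174 to a long noncoding RNA, 32 to a microRNA and 15 to an rRNA gene.

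Around start sites the summits lay downstream more often than upstream. Of the lone peaks at a TSS, 66.2% (64.4 to 67.9%) had the summit downstream, and the median summit was 122 bp into the gene. For the other narrow peaks at a TSS this was 71.2%, with a median of 120 bp. The bin of 200 bp just downstream of the TSS held 9.59% of all lone peaks and 18.2% of the others. Both groups were densest just downstream of the TSS, and more lone peaks lay 1 to 5 kb from it on either side (12.2% against 7.56%).

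**Figure D2:**
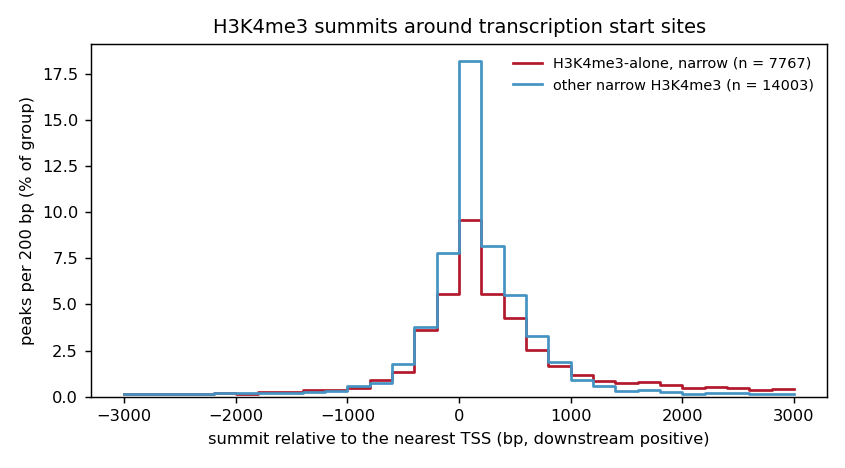
Signed distance from the H3K4me3 summit to the nearest TSS (x axis, bp, downstream positive) against the share of each group in bins of 200 bp (y axis, percent). Both lone peaks (red) and other narrow peaks (blue) are highest in the bin just downstream of the TSS, at 9.59% and 18.2%.

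Lone peaks were small. Their width had a median of 381 bp (10th to 90th percentile 200 to 937 bp), against 797 bp for the other narrow peaks. Fold enrichment, the height of the summit over the background that the peak caller expected, had a median of 5.42 and ran from 1.53 to 32.4, against 7.22 in the comparison group. The -log10 q-value had a median of 7.96, with a maximum of 171. At a TSS the lone peaks were wider (560 bp) and higher (6.38) than elsewhere (330 bp and 5.34). So were the other narrow peaks, with 1079 bp and 9.13 at a TSS and 481 bp and 5.71 elsewhere. These values come from the same list as the selection and carry no test.

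Many lone peaks shared the same few heights. Fold enrichment fell on whole multiples of a step of 0.451 (rounded), within 0.001, in 3311 lone peaks (42.6%, 41.5 to 43.7%) and in 2615 of the other narrow peaks (18.7%). The most frequent values were 4.51 in 491 peaks, 4.96 in 476 and 5.42 in 428, which are 10, 11 and 12 such steps, and each value had 1 typical -log10 q (4.01, 4.94 and 5.92). By default MACS2 divides the pileup plus 1 by the expected pileup plus 1, so a step would be 1 fragment over a flat background. The study's methods name no option that changes this, but the lists hold no fragment counts to check it against. Away from a TSS 54.4% of the lone peaks fell on a step, and 21.3% of those at a TSS.

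**Figure D3:**
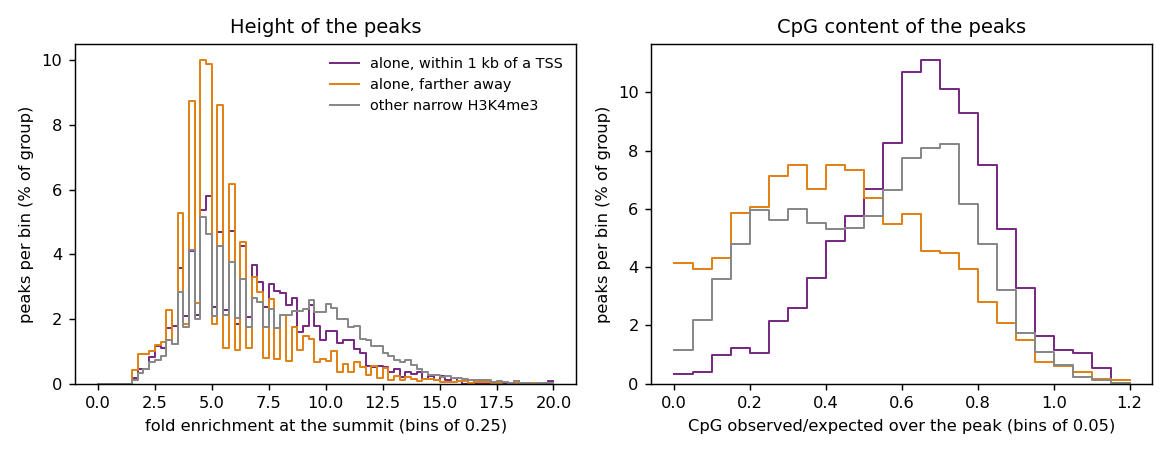
Fold enrichment at the summit (left, x axis to 20, bins of 0.25) and CpG observed/expected over the peak (right, x axis to 1.2, bins of 0.05) for lone peaks within 1 kb of a TSS (purple), lone peaks farther away (orange) and other narrow peaks (grey), as percent of each group per bin. The comb on the left comes from the steps of 0.451, and on the right lone peaks at a TSS lie around 0.655 and those farther away around 0.429.

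Base composition separated the lone peaks at start sites from those farther away, as it did among the other narrow peaks. CpG observed/expected compares the count of CG dinucleotides with that expected from the C and G content, and most of the mouse genome is low in it. Its median was 0.522 (0.514 to 0.531) over all lone peaks, 0.655 (0.648 to 0.662) at a TSS and 0.429 (0.419 to 0.438) farther away. The same windows moved by 50 kb had a median of 0.183. GC content was 61.4% at a TSS and 51.3% elsewhere. Lone peaks at a TSS were richer in GC than the other narrow peaks at a TSS, at 57.4%. CpG observed/expected of the other narrow peaks was 0.677 at a TSS and 0.33 farther away, a wider gap than in lone peaks.

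Called island-like with GC above 50% and CpG observed/expected above 0.6, 2713 lone peaks qualified (34.9%, 33.9 to 36%). This was -3.93 points (-5.25 to -2.59) from the other narrow peaks, and compares with 1.66% of the windows moved by 50 kb. The difference was 2.55 points (1.11 to 4) against narrow peaks with H3K27ac or Rfx2 but no MOF. Against those with MOF it was -14.7 points (-16.4 to -13). At a TSS the share was 59.7%, which was -5.07 points (-7.22 to -2.94) from that of other narrow peaks at a TSS. Farther away it was 21.3% against 11.6%, a difference of 9.72 points (8.36 to 11.1). In the 5 width classes below 1200 bp lone peaks were island-like more often than other narrow peaks, by 9.59 to 15.5 points. From 1200 bp the interval of the difference held 0 (-9.15 to 3.17). Sorted by fold enrichment the difference went both ways, from 7.69 points (4.57 to 10.8) between 6 and 8 to -5.77 points (-9.55 to -1.97) from 10 upward.

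Repeated sequence was commoner in lone peaks than in the other narrow peaks. Soft-masked bases, those that the assembly marks as repeats, made up over 50% of the peak in 638 lone peaks (8.21%, 7.61 to 8.85%) and in 206 other narrow peaks (1.47%, 1.28 to 1.68%), a difference of 6.74 points (6.12 to 7.4). Both are below the 21.4% of the windows moved by 50 kb. The 31-base word at the summit occurred more than once in the assembly in 1176 lone peaks (15.1%, 14.4 to 16%) and in 442 others (3.16%, 2.87 to 3.46%). Among the others it was at 6.7% of the peaks with MOF and 1.03% of those without, so the excess of lone peaks was smaller against MOF peaks, at 8.44 points (7.38 to 9.48). It occurred 10 times or more in 505 lone (6.5%) and 163 other peaks (1.16%). Away from a TSS the repeated word was at 19.5% of the lone and 4.32% of the other peaks, a difference of 15.2 points (14 to 16.4). In every class of width the share was higher in lone peaks, by 6.51 to 16.4 points. Reads from such words can be placed at any of their copies, and how the alignment placed them was not tested.

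The repeated word was commoner among high lone peaks, from 6.05% of those with a fold enrichment under 4 to 25% at 10 or more. Of the 50 lone peaks with the greatest fold enrichment (15.8 or more), 36 lay away from a TSS, and in 19 of these 36 the summit word was repeated. Heights of the top 10 away from a TSS ran from 22.9 to 32.4. The first lay in an intron of Flt1, the VEGF receptor gene, and held the telomere unit TTAGGG 30 times, counted on both strands. The unit was also present 29 times in the second (29.2, in an intron, nearest to the start of Galnt3). It was present 73 times in the peak with a height of 23 near Gm33045 and 19 times in that with 22.9 near Morf4l1-ps1. The peaks near Galnt3 and Morf4l1-ps1 held no 4 units in a row and are not among those counted so below.

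The word CCAGGTCCT was found 3 times each in the peaks near Nbea (29.1) and Litaf (27.1), and 2 times each in those near Ank1 (25.5) and Spag17 (23.5). The remaining peaks of the top 10, near Gtpbp4 (26.6) and Gm6639 (23.3), held neither. These words were picked after the sequences had been seen. Over all lone peaks, 4 or more units of TTAGGG in a row were in 53 (0.682%, 0.512 to 0.892%), all of them away from a TSS, and in 34 of the other narrow peaks (0.243%, 0.168 to 0.339%). At least 2 copies of CCAGGTCCT were in 7 lone and 22 other narrow peaks, which is 0.0901% and 0.157%. Tandem repeats are collapsed or missing in part in the assembly, and their true copy number was not measured.

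At start sites the highest lone peak had a fold enrichment of 22 (chr13:21396038-21396438) and lay 400 bp downstream of the start of the Mir6942 hairpin. It was followed by 9430037G07Rik (19.9), Gm2007 (19.8), Pnp2, a purine nucleoside phosphorylase gene (18.5), Gm10406 (18.3) and Zfp931 (17.8). Daw1, which helps to assemble ciliary dynein (17.7), Gm13822 (17.5), Gm14391 (17.2) and Actr3b, an actin-related protein gene (16.9), completed the top 10. At Daw1, Gm13822 and Actr3b the summit word was unique. At the others it occurred between 2 times (9430037G07Rik, Pnp2) and 20 times (Zfp931), so 7 of these 10 summits lay in sequence with another copy.

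Lone peaks often came in groups of H3K4me3 peaks. Another H3K4me3 peak lay within 5 kb of 2874 of them (37%, 35.9 to 38.1%), and within 1 kb of 1985 (25.6%). The share for 5 kb differed from that of the other narrow peaks by -0.246 points (-1.58 to 1.1), so no difference was detectable. At a TSS it was 46.2% against 41.8%, a difference of 4.4 points (2.22 to 6.59). Of the 1985 with a neighbour within 1 kb, the nearest was another lone peak for 1228, a narrow peak shared with another list for 571 and a peak of 1500 bp or more for 186. In the last set the lone peak had a median fold enrichment of 2.67, beside 4.97 in the wide neighbour.

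Distances to the other lists varied widely. An H3K27ac peak lay within 5 kb of 1950 lone peaks (25.1%, 24.1 to 26.1%) and within 1 kb of 943 (12.1%), MOF within 5 kb of 1008 (13%) and Rfx2 within 5 kb of 21 (0.27%). The median distance was 18305 bp to H3K27ac and 27642 bp to MOF. For 1413 lone peaks (18.2%) both H3K27ac and MOF were over 50 kb away. A set of 2528 (32.5%) had no TSS within 1 kb, no H3K4me3 or H3K27ac within 5 kb and at most 50% soft-masked bases. Their median width was 341 bp and their median fold enrichment 5.84. Of these, 1499 (59.3%) were intergenic, and 554 (21.9%) were island-like, a share close to that of lone peaks away from a TSS in general.

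Genes were examined next. Of 24963 genes with a curated TSS, 2690 (10.8%) had a lone peak within 1 kb of a TSS. At 2063 of these genes (8.26% of all, 7.93 to 8.61%) lone peaks were the only peaks of the 4 lists there. Below, such a gene is said to have a lone peak as its only peak, also where more than 1 lone peak lay there. With only the H3K4me3 peaks above the median significance the count was 660. With only the peaks above the median of each other list it was 3453. For comparison, 56.8% of genes had any H3K4me3 peak and 46.9% an H3K27ac peak. Start sites with only a lone peak had a CpG observed/expected of 0.632 (0.623 to 0.641) over 1 kb, between the 0.748 of those with another H3K4me3 peak and the 0.211 of those with no peak. Median fold enrichment over the 2063 genes was 7.33, and it ran from 1.78 to 22. Genes that share a peak were counted one by one, and a few genes, such as Shh and Tbx1, stand in more than 1 list.

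Neuronal genes and developmental regulators of other lineages had a lone peak as their only peak more often than genes at large. This was so for 32 of 86 neuronal and synaptic genes (37.2%, 27 to 48.3%). It also held for 45 of 142 developmental transcription factors listed as those of lineages other than the epidermis (31.7%, 24.1 to 40%). H3K27ac lay at 2 of the 86 and at 9 of the 142 genes. Both intervals lie above the 8.26% of all genes. No peak of any list was found at 45 of the neuronal and 71 of the developmental genes, and at 41.1% of all genes.

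Among the neuronal genes the highest lone peaks were at Cacna1b, the N-type calcium channel (11.2, 399 bp wide), Kcnq3, a potassium channel (10.2), Map2, a microtubule protein of dendrites (10.2), Shank1, a scaffold of the synapse (9.12), Gabrb2, a GABA receptor subunit (8.93), and Nrgn, a calmodulin-binding protein (7.67). Over all 32 genes the median was 5.78, below the 7.33 of all such genes. The nearest H3K27ac peak lay 155157 bp from the peak at Cacna1b, 517975 bp from that at Gabrb2 and 4043 bp from that at Shank1, so these sites varied from isolated to close to acetylated chromatin.

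Among the highest in the developmental list were Dlx5 of the facial and limb skeleton (12.4, 816 bp), Foxf1 of the lung and gut mesenchyme (9.35), the tendon factor Scx (8.11) and Atoh1, which drives hair cells and Merkel cells (8.1). Among the genes named here CpG observed/expected ran from 0.63 at Atoh1 to 0.861 at Foxf1. The median over the 45 genes was 4.96, below the 7.33 of all such genes. H3K27ac lay 313380 bp away at Atoh1 and 3295 bp away at Scx.

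Hox genes, the homeobox genes of body position, had 8 of 39 in this state (20.5%, 9.3 to 36.5%), against 8.26% of all genes, and 14 had H3K27ac (35.9%, against 46.9%). The highest were Hoxb1 (7.4), Hoxa13 (6.77), Hoxd1 (5.87), Hoxd9 (4.96), Hoxd8 (4.52) and Hoxc9 (3.12). In secreted signalling genes it was 24 of 85 (28.2%, 19 to 39%), led by Gdf11 (9.34), the BMP antagonist Chrd (9.32), Wnt9a (8.42), Gdf6 (8.41), Wnt5b (8.18) and Fgf3 (8.12). While 2 neuronal genes had H3K27ac, 29 of the signalling genes had H3K27ac, and 75.3% had H3K4me3 of some kind, against 46.9% and 56.8% of all genes.

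Markers of minor cell types of the skin gave small counts. For endothelial and muscle genes it was 8 of 43 (18.6%, 8.39 to 33.4%), with Egfl7 (13), Prox1 of lymphatic vessels (10.2), the VEGF receptor Kdr (9.27), Sox18 (7.92), Sox7 (5.93) and smooth muscle actin Acta2 (4.51). For melanocyte genes it was 4 of 14 (28.6%, 8.39 to 58.1%), namely Kit (5.51), Mlana (4.96), Slc24a5 (4.78) and Ednrb (4.51). Fibroblast genes had 4 of 34 (11.8%), at Fbn1 (10.1), Col1a1 (8.37), Crabp1 (6.62) and Loxl1 (4.06).

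Immune genes had 4 of 46 (8.7%), namely Cd14 (9.75), Irf8 (6.77), Coro1a (6.2) and Ikzf1 (5.42), and none of the 46 had H3K27ac. The intervals for melanocyte and for endothelial and muscle genes just clear the 8.26% of all genes, and those for fibroblast (3.3 to 27.5%) and immune genes (2.42 to 20.8%) include it. How many cells of these types the suspension held was not tested.

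For genes of the epidermis and its appendages no difference from genes at large was detectable. Of 68 keratinocyte genes 3 (4.41%, 0.919 to 12.4%) had a lone peak as the only one, while 54 had H3K4me3 and 47 had H3K27ac. The 3 were Elovl4, which makes very long fatty acids of the skin barrier (6.49), the hemidesmosome collagen Col17a1 (5.12) and the differentiation factor Zfp750 (4.75). At Col17a1 an H3K27ac peak began 953 bp from the lone peak, and at Zfp750 2620 bp away. Hair follicle genes had 4 of 33 (12.1%, 3.4 to 28.2%), which were Msx1 (6.36), Tbx1 (3.9), Krt28 (3.61) and Shh (2.92). Both intervals include the 8.26% of all genes.

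Electron transport, ciliary and ribosomal genes mostly had H3K27ac, which lay at 46.9% of all genes. No electron transport chain gene (0 of 73, interval up to 4.93%) had a lone peak, and all 73 had H3K4me3 and H3K27ac. Among ciliary genes it was 6 of 81 (7.41%, 2.77 to 15.4%), an interval that includes the 8.26% of all genes, namely Ift22 (12.9), Hydin (9.09), Pkd2 (9.06), Cc2d2a (8.94), Evc (6.15) and Spag6l (5.87), while 72 had H3K27ac. The ribosomal list, with H3K27ac at 76 genes, had 2 of 82 (2.44%, 0.297 to 8.53%, which includes the 8.26% of all genes), Rpl23a (6.13) and Rps6kl1 (9.93), the latter a kinase-like gene that its symbol brought into the list.

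Families used in germ cells or the nose mostly had no peak, which was so for 41.1% of all genes. Lone peaks were at 0 of 53 germline genes (up to 6.72%) as the only peak, where 45 had no peak of any list. Of 1468 olfactory and vomeronasal receptor genes, 2 had one (0.136%), Olfr66 and Vmn2r129, both with a fold enrichment of 5.42, and 1455 had no peak. MicroRNA genes had 30 of 1100 (2.73%, 1.85 to 3.87%), also below the 8.26% of all genes, led by Mir6942 (22), Mir713 (14.8), Mir692-2 (14.2), Mir692-3 (11.5) and the pair Mir130b and Mir301b (10.7), which share a peak. The annotated start of a microRNA is that of its hairpin, not of its promoter.

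**Figure D4:**
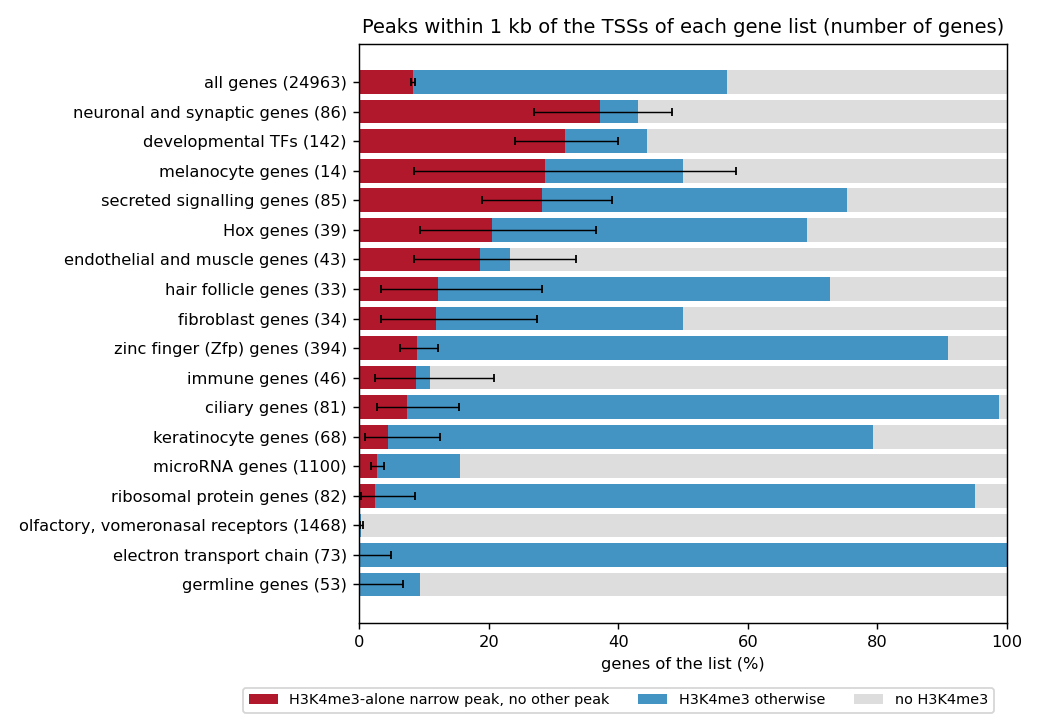
Share of the genes of each list (x axis, percent) with lone H3K4me3 peaks, 1 or more, as the only peaks within 1 kb of a TSS (red, with exact 95% interval), with H3K4me3 otherwise (blue) or without H3K4me3 (grey), and the number of genes in parentheses. The red share is 37.2% for neuronal genes and 31.7% for developmental transcription factors (TFs) of other lineages, against 8.26% of all genes and 0 of 73 electron transport chain genes.

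Zinc finger genes of the Zfp series, many of them KRAB repressors that silence retroelements, were not in this state more often than genes at large, with 35 of 394 (8.88%, 6.27 to 12.1%). Their lone peaks were however high, with a median fold enrichment of 10.4. They were led by Zfp931 (17.8), Zfp781 (15.7), Zfp955b (15.7), Zfp772 (15.7), Zfp109 (15.6) and Zfp773 (15.3). Of the 50 highest lone peaks 1 lay at a Zfp start site, of the 100 highest 8 and of the 500 highest 17. At any height, 45 of the 394 Zfp genes had a lone peak within 1 kb of a TSS, against 10.8% of all genes. The share over all lone peaks is not given here. Zfp genes have near-identical copies, and the part of reads placed among the copies was not tested.

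Some lone peaks stood in runs with gaps of at most 10 kb. There were 999 runs of 2 or more, with 2278 peaks (29.3%), and 17 runs of 5 or more. The run with the most peaks, 15 over 57.9 kb (chr8:123537238-123595129), lay over part of the array of 5S rRNA genes, the small ribosomal RNA that RNA polymerase III transcribes. Its heights ran from 3.13 to 7.26, and the summit word of each peak was found 13 to 51 times. The runs next in rank without a gene held 13 (chr6:114562735-114629553) and 11 peaks (chr6:114504736-114548349) and no annotated start site, and their summit words occurred 6 to 57 and 25 to 57 times. All these words were repeated, so the peaks of a run need not be separate sites.

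Between them in rank was a run of 12 peaks over 43.3 kb on chromosome 4 (chr4:88763012-88806298), at Ifnz, a type I interferon gene, and 11 gene models such as Gm13290 and Gm13289. Of these 12 genes, 11 had a lone peak as their only peak (8.26% of all genes), with fold enrichments of 5.54 to 10.4. None had H3K27ac (46.9% of all genes). The genes were named because the run lies on them, and a lone peak overlaps no H3K27ac, so both counts follow largely from the selection. Each summit word occurred 12 to 14 times. The words at the highest peak of these 4 runs, on the plus strand with CG in capitals, were as follows.
5S array (chr8:123586467-123586497): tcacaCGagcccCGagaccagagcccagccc
run of 13 (chr6:114572876-114572906): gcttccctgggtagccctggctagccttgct
Ifnz run (chr4:88773817-88773847): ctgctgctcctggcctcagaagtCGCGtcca
run of 11 (chr6:114548160-114548190): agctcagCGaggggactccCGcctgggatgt

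These 4 words were found 51, 16, 14 and 25 times. The fifth run, of 8 peaks, was unlike them. It lay at 8 gamma protocadherin genes from Pcdhgb5 to Pcdhga12 (4.07 to 13.6), which encode adhesion molecules that neurons express in random combinations, and every summit word was unique. Over the clustered protocadherins, a set picked after its values had been seen, 21 of 58 genes (36.2%, against 8.26% of all genes) had a lone peak as the only peak, 2 had H3K27ac and 32 had no peak (41.1% of all genes).

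Single genes held up to 8 lone peaks between their ends, a count that was not adjusted for gene length. Bcl11b, a factor of T cells and skin, had 8 lone peaks beside 10 of H3K27ac in 93.7 kb, and Arid5b and Nfix had 7 each, beside 13 and 8. Gata3, which epidermal and hair cells need, had 6 in 30.9 kb, beside 1 other H3K4me3 and 2 H3K27ac peaks. Nfia, Rbm20 and Ryr1 had 6 each as well. In a run of 6 at Gata3 the fold enrichment was only 1.54 to 2.19. Runs of 6 at Hoxa2 (1.57 to 2.42) and of 5 at Irx2 (1.57 to 2.41) were as low, so these were closely spaced calls of low fold enrichment.

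tRNA genes were examined after it had been seen that lone peaks lay on them. RNA polymerase III transcribes these genes from a promoter inside the gene, whose B box is well conserved. A lone peak overlapped 38 of 386 tRNA genes (9.84%, 7.06 to 13.3%), and another H3K4me3 peak 127 (32.9%), whereas H3K27ac overlapped 20 (5.18%) and MOF 70 (18.1%). With a shift of 50 kb to either side these shares were 1.55% and 1.3% for lone peaks and 3.37% and 3.11% for other H3K4me3. For MOF the shifted share was 0.777% on each side. The 37 lone peaks had a median fold enrichment of 4.96 (2.03 to 17.2) and a median width of 653 bp, and 23 of them lay on chromosome 13, which held 105 of the 386 genes. In 4 of the 37 the summit word was repeated. By share of peaks, 0.476% of lone and 0.271% of other narrow peaks lay on a tRNA gene, a difference of 0.205 points (0.04 to 0.399). Against narrow peaks with MOF the interval held 0 (-0.194 to 0.286), and over the whole list on chromosomes 1 to 19 the share was 0.503%.

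A tRNA-Arg and a tRNA-Gly gene among the highest are shown on the strand of the gene. Capitals mark the B box, searched as GTTCNANNC, where N is any base.
n-TRccg3 (tRNA-Arg, chr13:21215458-21215530, minus strand): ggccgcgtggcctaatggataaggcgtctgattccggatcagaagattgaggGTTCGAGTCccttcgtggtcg
n-TGgcc2 (tRNA-Gly, chr8:111062561-111062631, plus strand): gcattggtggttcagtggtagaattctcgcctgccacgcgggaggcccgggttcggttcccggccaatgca

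Their peaks had fold enrichments of 11.7 and 11.3. The tRNA-Gly gene lacks an exact match to these letters. Over all tRNA genes 91.7% held a match, with 34 of the 38 under a lone peak (89.5%, 75.2 to 97.1%) and 320 of the 348 others (92%, 88.6 to 94.6%).

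Short motifs within 150 bp of the summit were compared on both strands. At start sites the ETS word CCGGAAG was in 5.22% of the lone and 13.5% of the other narrow peaks, a difference of -8.26 points (-9.38 to -7.08). The NRF1 word GCGCATGCG (-1.07 points, -1.44 to -0.651) and the YY1 word AAGATGGCG (-1.59 points, -1.98 to -1.16) were also rarer. Away from start sites the YY1 word was more frequent in lone peaks, by 0.38 points (0.135 to 0.663). All 3 words are typical of housekeeping promoters. These shares were not split by width. The Sp and KLF word GGGCGGG was in 30.4% and 32.4%, and the interval of the difference held 0 (-4.02 to 0.0354).

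Away from start sites the AP-1 word TGANTCA, common in epidermal enhancers, was in 8.82% of the lone and 15% of the other narrow peaks, a difference of -6.18 points (-7.33 to -5.02). The TATA word TATAAA was more frequent in lone peaks, in 11.6% against 8.31% (3.31 points, 2.21 to 4.42, and 1.03 points, 0.211 to 1.93, at start sites), and so was the NF-Y word CCAAT, in 29.9% against 26.2% (3.65 points, 2.01 to 5.3). The E-box CACGTG was in 6.47% and 6.45%. At start sites NF-Y (-2.84 points, -4.72 to -0.911) and the E-box (-1.92 points, -2.95 to -0.814) were rarer in lone peaks. Over all narrow peaks, start sites included, the shares were 7.06% for ETS, 8.62% for AP-1, 6.88% for TATA, 27.2% for NF-Y, 0.859% for NRF1, 0.946% for YY1, 21.7% for Sp and KLF and 6.78% for the E-box. Matches are descriptions of sequence and say nothing of binding.

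By chromosome the share of narrow peaks that stood alone ran from 30.5% on chromosome 9 (27.9 to 33.2%) to 40% on chromosome 18 (36.2 to 43.9%). Heights on the inner and outer side of the width limit overlapped. The widest lone peaks inside it were 1499 bp (9.3, 200497 bp from the start of 1700030C10Rik), 1497 bp (8.11, at Repin1) and 1496 bp (5.73, at Mir1901). Just outside were 1501 bp (5.85, nearest to the start of Cbx8), 1501 bp (9.65, near C030034L19Rik) and 1502 bp (7.24, near BC107364). From 1400 to 1500 bp there were 45 lone peaks with a median fold enrichment of 7.66, and from 1500 to 1600 bp 54 with 7.05. Only 169 lone peaks of 1500 bp or more were found, so 97.9% of all lone peaks on these chromosomes were narrow.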

How the data were processed

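Peak lists of P0.5 total epidermis were analysed as the authors deposited them. Per the labels and the study's methods, reads were aligned to mm10 with Bowtie2 and peaks called library by library with MACS2, and a control library or excluded regions are not given in the sources used here. In the H3K4me3, H3K27ac and Rfx2 lists the authors gave a score, a fold enrichment (a ratio over the expected background), −log10 p-values and −log10 q-values and a summit for each peak. The deposited MOF list held 17546 peaks, more than the study states, so it may be another call, and its overlaps helped to define the lone peaks. Its score, of unstated scale, only ranked peaks in 1 alternative. The lists hold no read counts, and the read totals that the study states per library were not used here. GEO ties the H3K4me3 list to the second of 2 H3K4me3 libraries while its own name matches the title of the first, so its library remains uncertain. Data of further libraries were not analysed here.

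Overlaps, distances and base composition were computed with Python 3.11.15 and pysam 0.24.0 on GRCm38.p6, and 0 peaks ended beyond a chromosome. TSSs were those of curated RefSeq transcripts. Shares carry exact (Clopper-Pearson) intervals, differences Newcombe intervals and medians order-statistic intervals, all at 95%. No test between replicates was possible. Overlap calls were tested on simulated data against bedtools 2.31.1. The regions and the 17 gene lists were chosen with earlier results of these data known. Named were the 10 highest lone peaks at and the 10 away from a TSS (chromosome 18 left out), up to 6 genes of each list by fold enrichment, the 5 longest runs, the peaks next to the width limit and the genes with the most lone peaks inside. Runs beyond these 5, tRNA genes, protocadherins and the repeat words were chosen after their values had been seen. Alternatives changed the overlap rule, the strictness of each list, the width limit, the chromosomes, the TSS set and the distances. Some items that these rules select are not reported here.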

Additional observations from a re-analysis of the deposited data

Results flagged for a closer look

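The selection left out the sex chromosomes and the mitochondrial genome, where the same lists hold peaks that no comparison above used. On chromosome X 309 of 605 narrow H3K4me3 peaks stood alone (51.1%, 47 to 55.1%), with a median fold enrichment of 6.44. On chromosome Y it was 50 of 59 (84.7%, 73 to 92.8%), with a median of 4.96 and a maximum of 18.3. Of 8 narrow peaks on the mitochondrial genome 0 stood alone. Per the study's methods animals of both sexes were used, their mix in each library was not analysed here, and its part in these shares was not tested.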

How the results depend on the processing

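No paired analysis was possible because no mark or factor had a second list in use. Under 16 alternatives, all planned, 36 of 72 values stayed within the main interval, or within 1.5 times the main count, and 36 moved beyond it, none with a change of sign. Keeping the H3K4me3 peaks above the median significance gave 1230 lone peaks at 660 genes, 62.2% at a TSS (-17.6 points from the other narrow peaks), 18% with another H3K4me3 peak and 23.3% with H3K27ac within 5 kb, medians of 0.643 for CpG observed/expected, 10.4 for fold enrichment and 7.81% for soft-masked bases. With only the peaks above the median of each other list the values were 11883 peaks, 3453 genes, -20.8 points, 14.3% with H3K27ac, 0.496, 5.74 and 8.11%, since fewer peaks of other lists leave more alone. With no other peak within 1 kb they were 31% with another H3K4me3 peak, 14.5% with H3K27ac, 0.532 and 5.87, and with overlaps under 50% counted as alone 40.1% and 32.2%. A width limit of 1000 bp gave 32.5% at a TSS, -0.541 points and 0.504. The TSS share was 16.7% (-4.75 points) for 1 kb upstream to 100 bp downstream, 42.8% (-13.4 points) within 2.5 kb, 42.3% with predicted TSSs and 32.7% with coding TSSs only. Neighbour distances of 2 and 10 kb gave 28.8% and 49.7% for H3K4me3 and 17% and 36.7% for H3K27ac. In 300 bp around the summit soft-masked bases were 7.67%. Where no reason is named, the cause was not tested. Having 1 list per mark gives no replicate error, and many small peaks share the same few heights.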
